A study of Mus musculus with 6 samples.

Results

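The troponin genes encode the calcium switch of striated muscle, and 8 of them were found in the count table of 24421 gene symbols. They were selected by symbol alone, as Tnnt1, Tnni1 and Tnnc1 (slow skeletal), Tnnt3, Tnni2 and Tnnc2 (fast skeletal), and Tnnt2 and Tnni3 (cardiac). RNA had been sequenced from C2C12, mouse myoblasts kept as a line and turned into fused myotubes by lowering serum, after infection with 1 of a pair of lentiviruses. The shGAA group (3 libraries) carried a hairpin against Gaa, the gene of lysosomal acid alpha-glucosidase, and the shScrambled group (3 libraries) carried a scrambled hairpin. Cells of both groups were selected with puromycin and differentiated in 2% horse serum with 4.5 g/l glucose, and the titles of both groups carry the word Fed, whose meaning the labels do not give. The labels do not give the number of hairpin sequences, nor whether each library had its own infection or culture. The p-values therefore measure only how these libraries vary, and that variation may be technical.

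Libraries held 9224038 to 10430270 counts. Levels are given in CPM, the count as a share of the library size and scaled up to a common total, after scaling by TMM (a trimmed mean of log ratios). Gaa had 469, 445 and 552 counts in shGAA 1 to 3, against 1033, 1158 and 1119 in shScrambled 1 to 3. Its level in shGAA was 42.1% of that in shScrambled (adjusted p = 1.09e-09, edgeR). The library shScrambled 1 stood apart within its group, where its counts differed from those of shScrambled 2 and 3 by a chi-square of 5.87 and 5.31 for each degree of freedom, while all other pairs within a group gave 1.95 to 2.54. Of 9 skeletal myotube markers, 8 were lower in shGAA, and their summed level was 2593 to 2785 CPM in shGAA and 3564 to 3747 CPM in shScrambled. Of 4 tested markers of quiescent or proliferating myoblasts, 3 were higher and 1 lower in shGAA (sums of 387 to 395 CPM in shGAA and 319 to 350 CPM in shScrambled). Fibroblast markers gave 2 higher and 2 lower of 5 tested, smooth muscle markers 0 higher and 2 lower of 4, and endothelial markers 1 higher and 1 lower of 2. For all these counts, the shares over all tested genes were 18.5% higher and 19.7% lower (adjusted p under 0.05), and most of the lists are short. No marker of adipocytes or leukocytes had enough counts to be tested, and Lep, Plin1, Cidec, Cd3e and Itgam were among those with none. Of 11 cardiomyocyte markers, 3 were tested and 0 were called. Tbx5 and Myl7 had no count in any library and Myh6 and Nppa had none in shGAA. Hcn4, too low to be tested, had 10, 11 and 14 counts in shGAA 1 to 3, against 1, 0 and 2 in shScrambled 1 to 3. Of the tested markers, Gata4 was at 24.9 ± 1.18 CPM in shGAA and 23.4 ± 2.26 CPM in shScrambled (SD, n = 3 each). Nppb was at 12.6 ± 1.22 CPM in shGAA and 17.0 ± 4.58 CPM in shScrambled, and Nkx2-5 at 1.86 ± 0.268 and 1.34 ± 0.156 CPM.

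Troponin sits on the thin filament as a complex of 3 subunits. Troponin T anchors the complex to tropomyosin, troponin I holds back the contact of myosin with actin, and troponin C binds calcium and releases that block. Each subunit has separate genes for fast and slow fibres. The cardiac troponin T gene is also active in embryonic skeletal muscle and in differentiating muscle cells, and Tnnc1 serves both slow skeletal and cardiac muscle.

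The genes for troponin I and T lie as neighbours in the mouse genome (GRCm38.p6, RefSeq positions). The fast genes Tnni2 (chr7:142441816-142444410) and Tnnt3 (chr7:142498771-142516213) are 54360 bases apart. The slow gene Tnni1 (chr1:135783033-135810989) is 25325 bases from the cardiac gene Tnnt2 (chr1:135836315-135852268), and the slow gene Tnnt1 (chr7:4504569-4515975) is 2329 bases from the cardiac gene Tnni3 (chr7:4518305-4522718). The troponin C genes stand alone, Tnnc1 at chr14:31208312-31211729 and Tnnc2 at chr2:164777161-164779734.

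The 250 bases before the annotated start are shown for the 5 genes that fell in shGAA and have a promoter window in the RefSeq table, so that genes that moved together can be set beside each other (GRCm38.p6; the first window for Tnni1 and Tnnt2, which have more than 1). They run 5′ to 3′ on the gene's strand and end at the base before the start. The windows are chr7:4515976-4516225 on the minus strand (Tnnt1), chr1:135799171-135799420 on the plus strand (Tnni1), chr14:31208062-31208311 on the plus strand (Tnnc1), chr2:164779735-164779984 on the minus strand (Tnnc2) and chr1:135836084-135836333 on the plus strand (Tnnt2). Capitals mark matches, on either strand, to CANNTG (the E-box, the core recognised by MyoD-family factors), to CATTCC (the M-CAT motif recognised by TEAD factors) and to TATAAA (a core promoter element). The windows of Tnni1 and Tnnt2 lead up to a transcript start inside the span given above. The table held windows for 6 of the 8 genes, with no entry for Tnni2 and Tnnt3.
Tnnt1: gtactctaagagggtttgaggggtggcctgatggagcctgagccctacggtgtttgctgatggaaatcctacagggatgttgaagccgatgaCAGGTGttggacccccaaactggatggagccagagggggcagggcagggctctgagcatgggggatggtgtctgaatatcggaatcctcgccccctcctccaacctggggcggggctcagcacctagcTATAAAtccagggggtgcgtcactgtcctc
Tnni1: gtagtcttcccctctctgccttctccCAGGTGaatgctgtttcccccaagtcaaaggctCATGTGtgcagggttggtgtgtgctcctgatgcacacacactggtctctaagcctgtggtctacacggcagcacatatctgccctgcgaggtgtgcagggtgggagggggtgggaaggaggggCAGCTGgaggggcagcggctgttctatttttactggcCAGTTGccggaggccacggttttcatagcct
Tnnc1: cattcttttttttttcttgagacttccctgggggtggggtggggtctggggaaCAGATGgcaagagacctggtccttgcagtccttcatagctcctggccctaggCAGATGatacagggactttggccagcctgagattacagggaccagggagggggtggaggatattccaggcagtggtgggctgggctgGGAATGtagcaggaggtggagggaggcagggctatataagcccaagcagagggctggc
Tnnc2: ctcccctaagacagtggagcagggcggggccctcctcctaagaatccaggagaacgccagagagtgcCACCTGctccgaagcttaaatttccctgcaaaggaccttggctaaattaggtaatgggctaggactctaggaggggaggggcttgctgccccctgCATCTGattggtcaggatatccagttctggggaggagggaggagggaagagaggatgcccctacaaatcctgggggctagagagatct
Tnnt2: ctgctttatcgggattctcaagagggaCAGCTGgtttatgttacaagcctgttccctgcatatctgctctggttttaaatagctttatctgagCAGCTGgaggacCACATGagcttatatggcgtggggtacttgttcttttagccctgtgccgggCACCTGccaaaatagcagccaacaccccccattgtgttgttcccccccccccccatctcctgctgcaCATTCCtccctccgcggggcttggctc

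CANNTG occurred 1 time in the Tnnt1 window, 4 times in that of Tnni1, 2 times each in those of Tnnc1 and Tnnc2 and 4 times in that of Tnnt2. It was present in 66.2% of all 32851 windows of this length, a share that leaves little to read from its presence here. CATTCC was found in the windows of Tnnc1 (as GGAATG) and Tnnt2, against 12.6% of all windows, and TATAAA only in that of Tnnt1 among the 5, against 12.4%. No match to the MEF2 consensus or the CArG box, which occur in 2.92% and 1.47% of all windows, was found in the 5. None of the matches overlap each other.

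Troponin transcripts were lower in shGAA than in shScrambled. Of the 7 genes that passed the filter on low counts, 6 were called lower at an adjusted p under 0.05 in edgeR's quasi-likelihood test over all 11801 tested genes and 0 were called higher. Of all tested genes, 38.2% were called in either direction, 19.7% were called lower and 18.5% higher. All 3 slow genes, 2 of the 3 fast genes and the cardiac gene Tnnt2 fell, and Tnnt3 did not pass. The median log2 fold change of the 7 was -0.60, against 0.01 over all tested genes. In bulk RNA, a smaller number of differentiated cells and less troponin RNA per cell cannot be told apart.

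**Figure D1:**
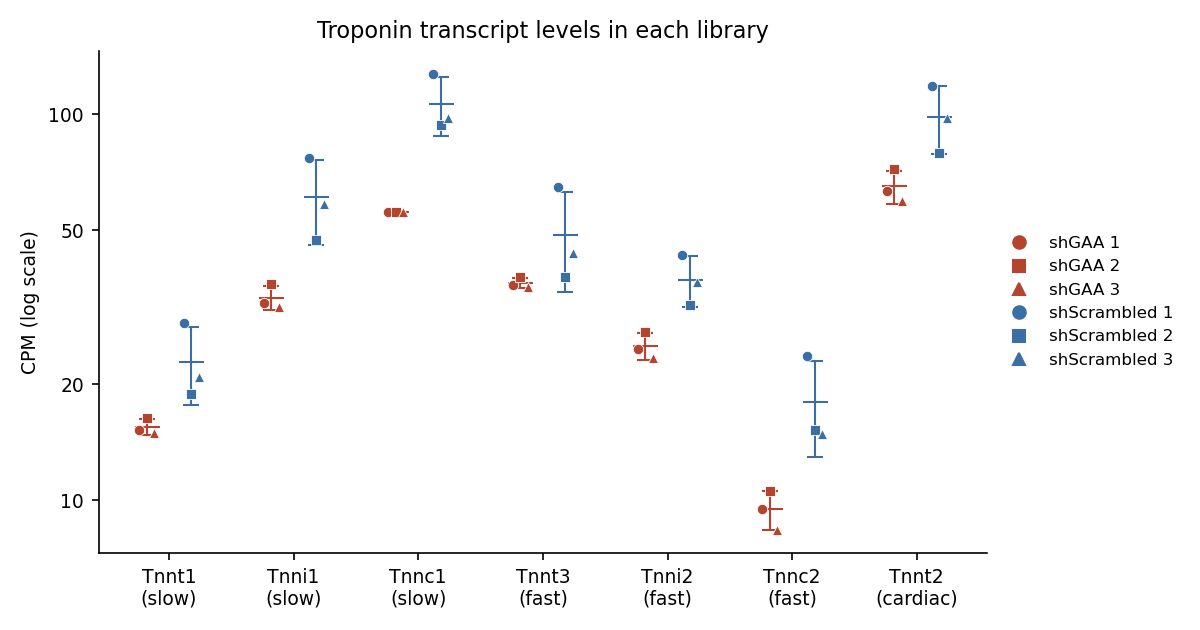
CPM of the 7 tested troponin genes in each library, on a log axis; marker shapes give the replicate number, and dashes with bars give the mean ± SD of 3 libraries. The highest point of every gene is shScrambled 1, and the shGAA and shScrambled points of Tnnt3 almost touch, at 37.8 and 37.9 CPM.

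Among the slow genes, Tnnc1, the calcium-binding subunit of slow and cardiac muscle, had 55.7, 55.9 and 56.0 CPM in shGAA 1 to 3, against 127, 93.7 and 97.8 CPM in shScrambled 1 to 3. The shGAA libraries were nearly equal and lay below every shScrambled library. Its log2 fold change was -0.93 ± 0.11 (SE, adjusted p = 0.000136, with 3 libraries in each group), leaving 52.5% of the shScrambled level. Tnni1, the slow inhibitory subunit, had 32.5, 36.4 and 31.7 CPM in shGAA 1 to 3, against 77.2, 47.3 and 58.4 CPM in shScrambled 1 to 3. The groups did not overlap, and the spread lay mostly within shScrambled. Tnni1 changed by -0.87 ± 0.19 (SE, adjusted p = 0.0167), a call that ended without shGAA 1 (adjusted p = 0.0603) or without shGAA 3 (adjusted p = 0.0725). Tnnt1, the slow tropomyosin-binding subunit, had 15.2, 16.3 and 14.9 CPM in shGAA 1 to 3, against 28.8, 18.9 and 20.9 CPM in shScrambled 1 to 3. Its groups did not overlap either, with a log2 fold change of -0.57 ± 0.14 (SE, adjusted p = 0.00552), or -0.36 without shScrambled 1.

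Among the fast genes, Tnnc2, the fast calcium-binding subunit, had 9.49, 10.6 and 8.36 CPM in shGAA 1 to 3, against 23.7, 15.2 and 14.8 CPM in shScrambled 1 to 3. All shGAA values lay below all shScrambled values, with a log2 fold change of -0.93 ± 0.18 (SE, adjusted p = 0.00151) and 52.6% of the shScrambled level left. In the GENCODE M21 annotation, 74.0% of the exonic bases of Tnnc2 (592 bases) overlap exons of Ube2c, a ubiquitin-conjugating enzyme gene of mitosis, on the opposite strand, although their RefSeq spans lie 4258 bases apart. Ube2c itself fell by 0.81 ± 0.06 on the log2 scale (adjusted p = 3.68e-08), with 580 to 722 counts in shGAA and 992 to 1132 in shScrambled. The sources used here do not give the use of strand or the annotation in counting, so the share of Ube2c reads in Tnnc2 was not tested. In shScrambled 1 the level of Tnnc2 was 1.58 times the mean of shScrambled 2 and 3, and that of Ube2c 1.06 times.

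Tnni2, the fast inhibitory subunit, had 24.7, 27.3 and 23.4 CPM in shGAA 1 to 3, against 43.2, 32.0 and 36.7 CPM in shScrambled 1 to 3. The groups did not overlap, and the gene changed by -0.57 ± 0.11 (SE, adjusted p = 0.000440), to 67.2% of the shScrambled level. Tnnt3, the fast tropomyosin-binding subunit, had 36.1, 37.8 and 35.8 CPM in shGAA 1 to 3, against 64.7, 37.9 and 43.8 CPM in shScrambled 1 to 3. Here shGAA 2 and shScrambled 2 were at nearly the same level, and they crossed when scaled by library size alone, at 38.5 and 37.1 CPM. The log2 fold change of Tnnt3 was -0.42 ± 0.21 (SE, adjusted p = 0.187). It passed the test without shScrambled 2 (-0.57, adjusted p = 0.0185) and with the non-robust fit (-0.42, adjusted p = 0.0385), and stood at -0.16 without shScrambled 1 (adjusted p = 0.122).

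Of the cardiac genes, Tnnt2, the cardiac tropomyosin-binding subunit, had 63.3, 72.1 and 59.7 CPM in shGAA 1 to 3, against 119, 79.6 and 97.6 CPM in shScrambled 1 to 3. The groups did not overlap, and the log2 fold change was -0.60 ± 0.16 (SE, adjusted p = 0.0326). That call ended without shGAA 1, shGAA 3 or shScrambled 3 (adjusted p = 0.0958, 0.110 and 0.0701). Tnni3, the cardiac inhibitory subunit, had 3, 0 and 1 counts in shGAA 1 to 3, against 6, 4 and 1 counts in shScrambled 1 to 3, and was too low to be tested. A count of 0 in shGAA 2 allows up to 3 counts, or 0.320 CPM, counting error only.

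**Figure D2:**
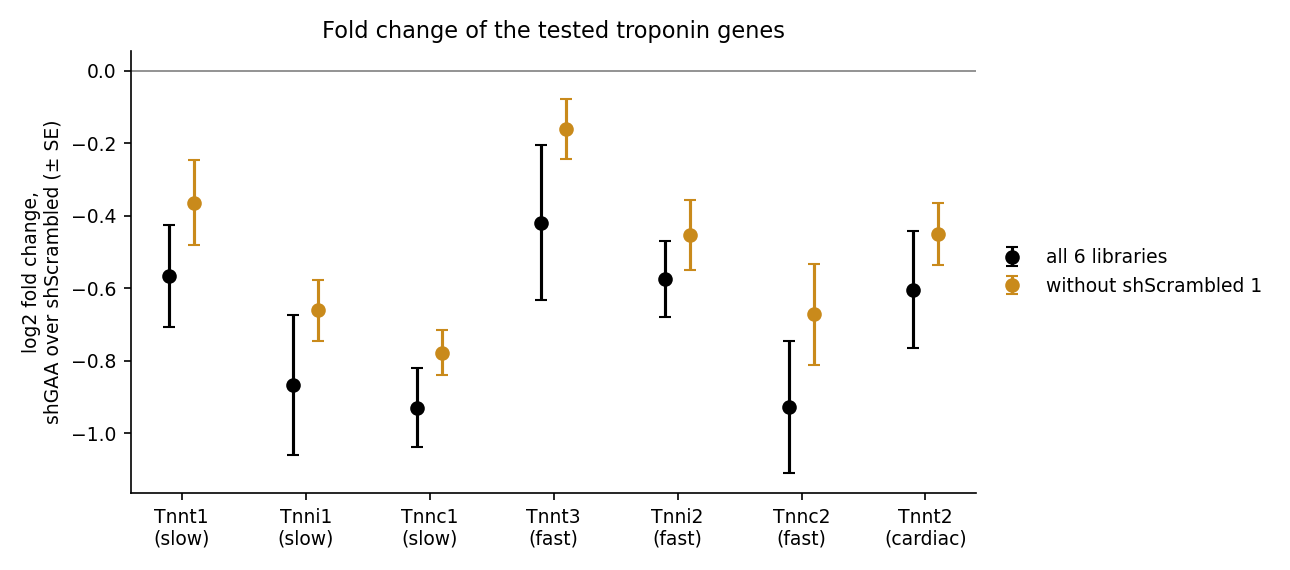
Log2 fold change (shGAA over shScrambled, ± SE) of each tested troponin gene with all 6 libraries (black) and without shScrambled 1 (ochre). Every point lies below 0 in both fits, and all lie nearer to 0 when shScrambled 1 is left out, with Tnnt3 at -0.16 in place of -0.42.

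The library shScrambled 1 carried the most troponin RNA of the 6. Each of the 7 tested genes was highest there, at 1.26 (Tnni2) to 1.58 (Tnnt3) times the mean of shScrambled 2 and 3. Among all tested genes, 38.1% were higher in shScrambled 1 than in both others of its group, and the median over all tested genes of the log2 ratio to the mean of both lay close to 0. The skeletal myotube markers were also high in that library, with a median log2 ratio of 0.33, and their part in the result was not tested. Without shScrambled 1 the same 6 genes were called lower, against 20.9% of 11894 tested genes called lower, and the median over the 7 was -0.45. Tnnc1 was then at -0.78, Tnnc2 at -0.67, Tnni1 at -0.66, Tnni2 at -0.45, Tnnt2 at -0.45 and Tnnt1 at -0.36, each with an adjusted p of at most 0.0108. Every shGAA library lay below every shScrambled library in all 7 tested genes on the TMM scale, as in 24.9% of all tested genes.

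By class, the summed level of the 3 slow genes was 105 ± 3.20 CPM in shGAA and 190 ± 38.5 CPM in shScrambled (SD, n = 3 each), or 55.1%. The 3 fast genes summed to 71.2 ± 4.15 CPM in shGAA and 104 ± 24.4 CPM in shScrambled, or 68.4%. The cardiac genes summed to 65.2 ± 6.27 CPM in shGAA and 99.0 ± 19.6 CPM in shScrambled, or 65.8%. Nearly all of that sum was Tnnt2 (means of 65.0 CPM in shGAA and 98.6 CPM in shScrambled), so it repeats the result of that gene. None of the sums overlapped between the groups. In the exact two-sided permutation test each gave p = 0.1 (the same after adjustment over the 3 classes), the smallest p that 3 against 3 libraries can give. Without shScrambled 1 the log2 ratio of the fast sum was -0.34 in place of -0.55, and that of the slow sum -0.68 in place of -0.86.

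Ratios of isoforms within a library address slow against fast directly, since library scaling and gene length drop out of the difference between the groups. The fast-to-slow log2 ratio of troponin I (Tnni2 over Tnni1) was -0.39, -0.41 and -0.44 in shGAA 1 to 3, against -0.84, -0.56 and -0.67 in shScrambled 1 to 3. All shGAA values were higher, and the mean difference was 0.28 ± 0.08 (SE), a ratio 1.21 times as high. For troponin T (Tnnt3 over Tnnt1) the log2 ratio was 1.25, 1.21 and 1.26 in shGAA 1 to 3, against 1.16, 1.00 and 1.07 in shScrambled 1 to 3. These groups did not overlap either, with a difference of 0.16 ± 0.05 (SE), a ratio 1.12 times as high. For troponin C (Tnnc2 over Tnnc1) it was -2.55, -2.40 and -2.74 in shGAA 1 to 3, against -2.42, -2.62 and -2.72 in shScrambled 1 to 3. The groups overlapped, with a difference of 0.03 ± 0.13 (SE) that ran between -0.06 and 0.11 as each library was left out. The exon overlap of Tnnc2 with Ube2c also limits this ratio, the fast sum above and the troponin C shares below. The share of Ube2c reads in them was not tested.

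None of the 5 ratios compared passed the exact two-sided permutation test, which cannot go below p = 0.1 here. The troponin I and fast-to-slow troponin T ratios reached that permutation p = 0.1 (0.25 adjusted over the 5), and troponin C gave p = 0.8. Fast against cardiac troponin T (Tnnt3 over Tnnt2) differed by 0.21 ± 0.10 (SE, permutation p = 0.2), and slow against cardiac troponin T (Tnnt1 over Tnnt2) by 0.05 ± 0.07 (SE, permutation p = 0.6), with overlapping groups in both. The libraries of the groups were thus separate for the fast-to-slow ratio of troponin I and of troponin T and mixed for that of troponin C, and whether the subunits differ in this was not tested. Within shScrambled, the library shScrambled 1 had the highest ratio for troponin T and the lowest for troponin I.

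**Figure D3:**
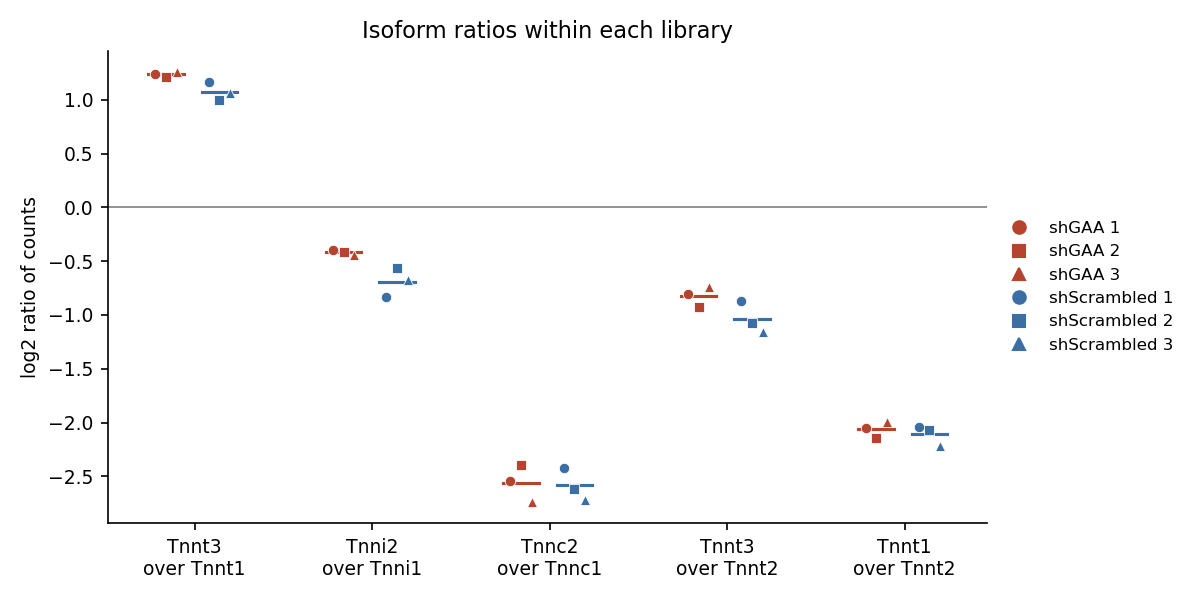
Log2 ratio of counts of a pair of troponin isoforms within each library, with 0.5 counts added to each; points are libraries and short lines are means of 3. The shGAA and shScrambled points are separate for Tnnt3 over Tnnt1 and Tnni2 over Tnni1 and overlap for the other 3 ratios.

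To compare levels between genes, CPM were divided by the length in kilobases of the exons of GENCODE basic transcripts. With this length Tnnc1 had the highest level in both groups, at 77.5 ± 0.165 CPM per kb in shGAA and 147 ± 25.6 in shScrambled, followed by Tnnt2 at 51.5 ± 5.03 in shGAA and 78.1 ± 15.4 in shScrambled (SD, n = 3 each). Tnni1, Tnni2 and Tnnt3 were at 47.9 ± 11.9, 42.8 ± 6.48 and 41.8 ± 12.1 CPM per kb in shScrambled. Tnni1 was above Tnni2 and Tnnt3 in each shScrambled library, while the order of Tnni2 and Tnnt3 differed between libraries. In shGAA the order of these genes by mean was Tnnt3 at 31.4 ± 0.947, Tnni2 at 28.8 ± 2.28 and Tnni1 at 26.3 ± 1.95 CPM per kb. Each shGAA library had that same order with this length, and the differences between genes were not tested. Tnnt1 was at 14.4 ± 0.677 CPM per kb in shGAA and 21.2 ± 4.88 in shScrambled, and Tnnc2 at 13.5 ± 1.57 in shGAA and 25.6 ± 7.17 in shScrambled. With this length Tnnc2 was above Tnnt1 in each shScrambled library and below it in each shGAA library, though barely in shGAA 2 (15.08 and 15.13). With the exons of every annotated transcript as the length, an alternative chosen after the data were seen, Tnnc1 still led, at 53.7 ± 0.114 CPM per kb in shGAA and 102 ± 17.7 in shScrambled. Tnnt2 was then at 8.39 ± 0.819 CPM per kb in shGAA and 12.7 ± 2.51 in shScrambled, below Tnnt3, Tnni2, Tnnc2 and Tnni1 by mean in both groups.

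Within troponin C, Tnnc1 made up 85.2 ± 1.48% of the CPM per kb in shGAA and 85.4 ± 1.31% in shScrambled. Within troponin I, the fast gene Tnni2 made up 52.1 ± 0.335% in shGAA and 47.3 ± 2.36% in shScrambled, and Tnni3 0.273 ± 0.316% in shGAA and 0.458 ± 0.282% in shScrambled. Within troponin T, Tnnt2 made up 52.9 ± 1.53% in shGAA and 55.5 ± 2.13% in shScrambled, Tnnt3 32.3 ± 1.22% in shGAA and 29.4 ± 1.84% in shScrambled, and Tnnt1 14.8 ± 0.314% in shGAA and 15.0 ± 0.542% in shScrambled. The order within troponin T and within troponin I depends on the length used. With the exons of every annotated transcript, Tnnt2 has 7752 exonic bases in place of 1263, and Tnnt3 leads with 60.0 ± 1.05% in shGAA and 56.9 ± 1.86% in shScrambled. Tnni1 has 3600 in place of 1273, and Tnni2 then leads troponin I in both groups, with 64.1 ± 0.303% in shGAA and 59.6 ± 2.29% in shScrambled.

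**Figure D4:**
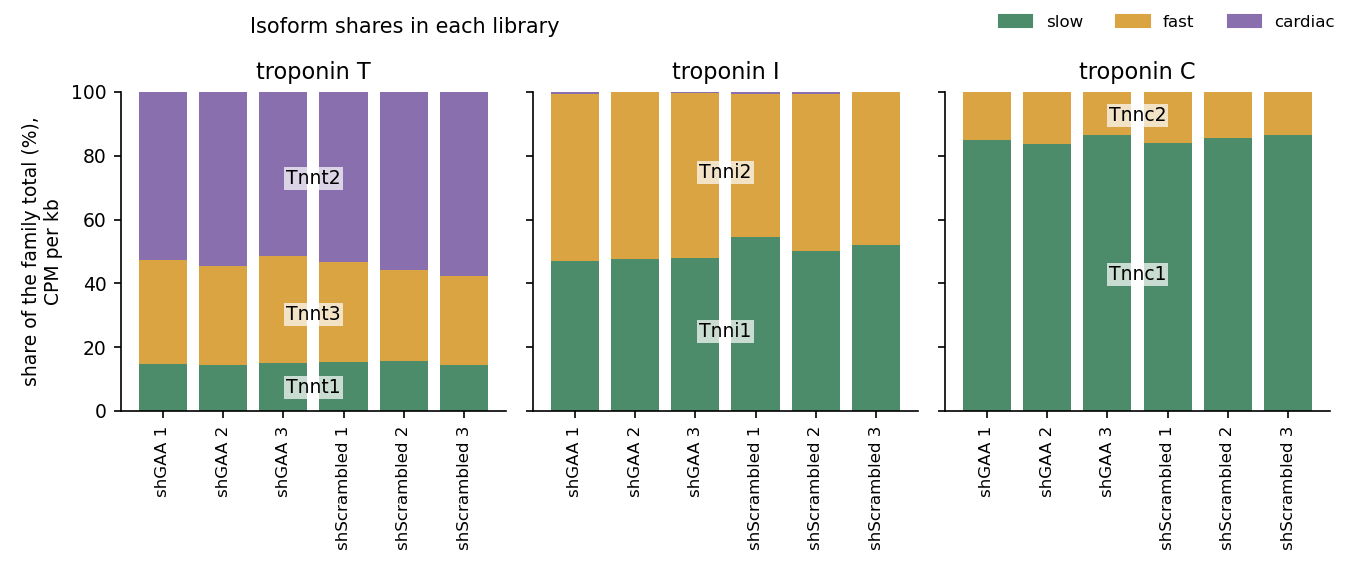
Share of each gene in the CPM per kb of its troponin family, per library, with slow genes in green, fast in yellow and cardiac in purple. Tnnc1 holds 83.7% to 86.7% of troponin C in every library, and the Tnni2 share is 51.7% to 52.3% in shGAA libraries and 44.7% to 49.4% in shScrambled libraries.

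Genes next to the troponin loci went in different directions. Lsp1, a leukocyte-specific protein gene between Tnni2 and Tnnt3, was at -0.06 ± 0.05 on the log2 scale (adjusted p = 0.402), and Lad1, between Tnni1 and Tnnt2, had 0 to 3 counts per library. Nisch, beside Tnnc1, rose by 0.14 ± 0.05 (adjusted p = 0.0207), and Pkp1, a desmosomal plakophilin gene beside Tnnt2, fell by 0.55 ± 0.08 (adjusted p = 7.12e-05). Phlda3, Ppp1r12c, Snx21 and Mrpl23 did not pass the test, and Syt8, Sema3g and Dnaaf3 were too low to be tested. Dnaaf3 overlaps 4.17% of the exonic bases of Tnni3 on the same strand. Of the 50-base stretches in the transcripts of each tested troponin gene, at most 0.827% (Tnnt1) occur in the transcripts of another gene on the sense strand, and none for Tnnc1, Tnnc2, Tnni2 and Tnnt3.

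Other genes of the thin filament moved mostly down. Of 22 tested, 12 fell, 1 rose and 9 did not pass, with a median log2 fold change of -0.23. The shares were 54.5% lower and 4.55% higher, against 19.7% and 18.5% of all tested genes. Skeletal actin Acta1 fell by 0.71 ± 0.08 (adjusted p = 0.000133), the filament-end capping gene Tmod1 by 1.03 ± 0.13 (adjusted p = 7.50e-06), while the nebulin-associated gene Klhl41 fell by 0.79 ± 0.13 and nebulin (Neb) fell by 0.75 ± 0.18 (adjusted p = 0.0229). Of the 4 tropomyosin genes, 3 fell and 1 rose. Counts per gene symbol do not separate transcripts of muscle filaments from other transcripts of the same gene. Tpm3, which is also on the slow-fibre list, fell by 0.43 ± 0.05 (adjusted p = 2.75e-06) and Tpm2 by 0.25 ± 0.05 (adjusted p = 0.000513). Tpm1 rose by 0.28 ± 0.05 (adjusted p = 0.000514). Tpm4, named after its values were seen, fell by 0.22 ± 0.04 (adjusted p = 0.000674). Cardiac actin Actc1, also made in embryonic skeletal muscle, fell by 0.60 ± 0.20 (adjusted p = 0.0333). Tnni3k, a cardiac kinase named for its binding to troponin I, had 2 to 3 counts in shGAA and 4 to 9 in shScrambled and was not tested.

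Genes of both fibre programmes fell. Among 12 fast-fibre genes that could be tested, 8 fell and 1 rose (median -0.56). That is 66.7% lower and 8.33% higher, against 19.7% and 18.5% of all tested genes. The fast-fibre gene that rose was Tpm1, which is also on the thin-filament list. Tpm3 is on both the thin-filament and the slow-fibre lists, so the lists share members. Actn3, the fast-fibre actinin, fell by 1.14 ± 0.05 (adjusted p = 1.17e-10), Eno3 (muscle enolase) by 0.77 ± 0.05, the fast calcium pump gene Atp2a1 by 0.66 ± 0.09 and muscle creatine kinase Ckm by 0.94 ± 0.16. Among 13 slow-fibre genes that could be tested, 6 fell (46.2%) and 1 rose (7.69%), with a median of -0.41. Besides Tpm3, the slow calcium pump gene Atp2a2 fell by 0.29 ± 0.05 and the stretch-responsive gene Ankrd2 by 1.21 ± 0.26 (adjusted p = 0.00137), and Ppargc1a, a coactivator linked to oxidative fibres, rose by 1.88 ± 0.31. The medians of the fast and slow troponin genes were -0.57 and -0.87. The slow myosin genes Myh7 and Myl2, singled out after their values were seen, had low levels in both groups, at 1.09 ± 0.319 and 1.13 ± 0.178 CPM in shGAA and 1.48 ± 0.489 and 1.12 ± 0.140 CPM in shScrambled. Low levels were not limited to slow genes. The fast myosin genes Myh2 and Myh13, also named after their values were seen, had means of 0.744 and 0.192 CPM in shGAA and 1.08 and 0.317 CPM in shScrambled. Myh1 and Myh4 were higher, with means of 10.9 and 6.84 CPM in shGAA and 16.9 and 5.76 CPM in shScrambled.

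**Figure D5:**
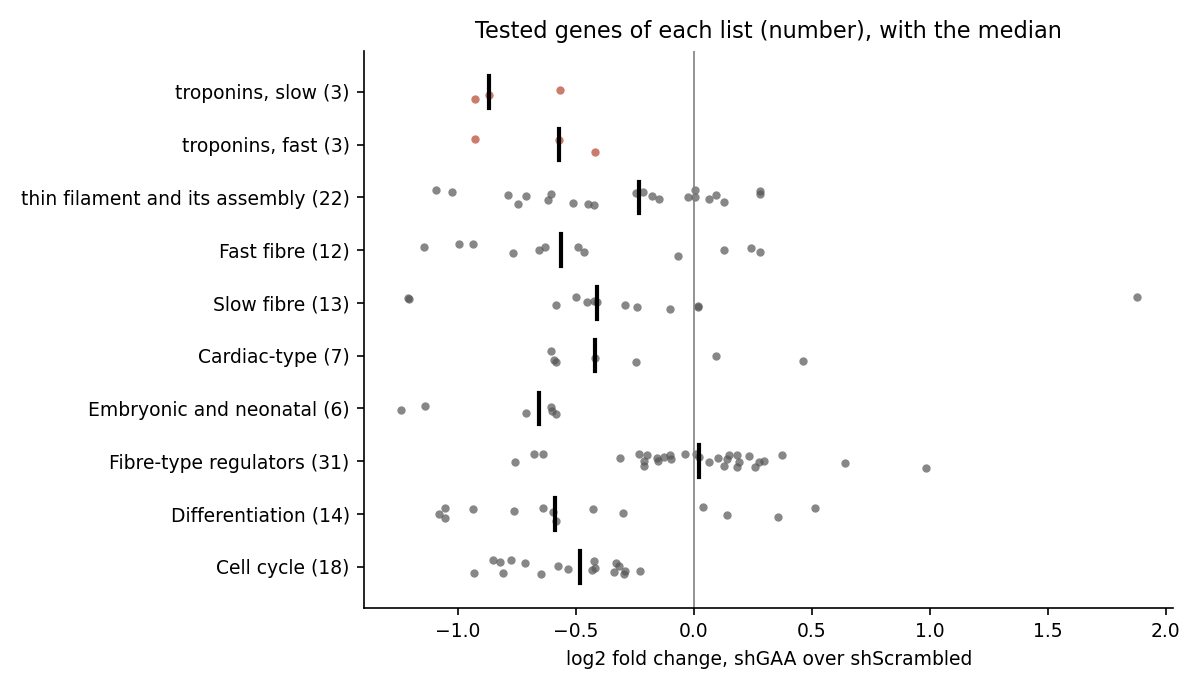
Log2 fold change (shGAA over shScrambled) of each tested gene, by list, with the number of tested genes in brackets and the median as a black bar. The slow troponin median lies at -0.87 and the fast one at -0.57, while fibre-type regulators centre on 0.02.

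Embryonic and cardiac-type genes were few. Of 6 tested embryonic and neonatal genes, which include Tnnt2, 4 fell (66.7%, against 19.7% of all tested genes) and 2 did not pass. Embryonic myosin Myh3 was at -1.24 ± 0.28 (adjusted p = 0.0280) and the fetal acetylcholine receptor subunit Chrng at -1.14 ± 0.08 (adjusted p = 1.85e-08). The count of 4 was 1 without shGAA 1 or without shGAA 3. Of 7 tested cardiac-type genes, 2 fell (Actc1 and Ankrd1, a stress-responsive ankyrin repeat gene) and 5 did not pass. The share that fell was 28.6%, near the 19.7% of all tested genes for a list this short. The count that fell was 0 without shGAA 1 or shGAA 3, 1 without shScrambled 3 and 4 without shScrambled 1. Among 31 regulators of fibre type, 9 were called higher (29.0%, against 18.5% of all tested genes) and 6 lower (19.4%, against 19.7%), so the share lower was near that of all genes. The 4 with the smallest adjusted p were Hdac9, a repressor of MEF2 factors, rising by 0.98 ± 0.10 (adjusted p = 1.03e-06), Mef2a rising by 0.27 ± 0.05, Mef2c falling by 0.64 ± 0.15 (adjusted p = 0.00346) and the splicing regulator Celf1 falling by 0.21 ± 0.05. The 9 rises were 5 without shGAA 1. Among 14 differentiation genes, 10 fell (71.4%, against 19.7% of all tested genes) and 2 rose (14.3%, against 18.5%). They were led by the acetylcholine receptor subunit gene Chrna1 (-0.60 ± 0.05), the cell cycle inhibitor gene Cdkn1a (0.36 ± 0.04), Jsrp1 (-0.58 ± 0.08), which acts at the sarcoplasmic reticulum, and desmin, Des (-0.30 ± 0.04). All 18 cell cycle genes tested also fell, against 19.7% of all tested genes. Their median was -0.48, led by Kif20a (-0.93 ± 0.05), Cdc20 (-0.85 ± 0.05), Prc1 (-0.82 ± 0.06) and Ube2c.

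The troponin genes followed each other closely across the 6 libraries. Pearson's r of log2 CPM between the 7 tested genes lay between 0.827 and 0.996 over 21 gene pairs, a description of points that share both groups and shScrambled 1. Among 10334 genes with a mean of at least 5 CPM, those most like Tnni1 were Myl1 (fast myosin light chain, r = 0.998), Cchcr1 (0.997) and Tnni2 (0.996), and those most like Tnni2 included Tnni1 (0.996) and Tnnt2 (0.995). Most like Tnnc2 were the fast myosin light chain gene Mylpf (0.998), Sipa1l2 (0.997) and Klhl40 (0.995), which is linked to thin-filament assembly. Most like Tnnc1 were the membrane repair gene Trim72 (0.9997), Ap1b1 (0.9997) and Dgka (0.999). Ncs1, Hs6st1 and Cx3cl1 were most like Tnnt1 (0.997 to 0.998), and E030011O05Rik, 2410127L17Rik and the slow calcium store gene Casq2 most like Tnnt3 (0.991 to 0.996).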

How the data were processed

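RNA-seq of 6 libraries was analysed, 3 of shGAA and 3 of shScrambled C2C12 myotubes, grouped by their labels. The authors deposited raw read counts per gene symbol. Per the submitters' processing notes, FastQC, HISAT2 2.1.0, Subread and edgeR were used with the mm10 build, with the annotation, strand setting and handling of multi-mapping reads not given in the sources used here. Totals were 9224038 to 10430270 counts per library, and 8068 of 24421 symbols had none. A count of 0 in a library allows up to 3 counts (counting error only).

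Counts were tested with edgeR 4.0.16 in R 4.3.3 (filterByExpr by group, TMM, robust quasi-likelihood F-test with no covariate). P-values were adjusted by Benjamini and Hochberg's method across the 11801 genes tested, with calls at an adjusted p under 0.05. Isoform ratios (0.5 counts added to each) and class sums were compared by exact two-sided permutation of the 6 libraries. Levels per kilobase used GENCODE M21 exon lengths, and positions and promoter sequences are from RefSeq on GRCm38.p6. Alternatives were RLE and library-size scaling, no filter, DESeq2 1.42.0, limma-voom (limma 3.58.1), a non-robust fit, a replicate block, a pseudocount of 2, each library left out and, added after the data were seen, another exon length.

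The troponin genes and all 8 gene lists and 8 marker lists were chosen with earlier results of these data known. All troponin genes are named, with up to 4 called genes of smallest adjusted p per list and a fixed set of thin-filament and neighbouring genes, and the 3 genes closest to each slow or fast troponin gene by Pearson's r, of which 1 is not reported here. The code was checked on simulated counts.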

Additional observations from a re-analysis of the deposited data

How the results depend on the processing

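All 7 tested troponin genes kept a negative log2 fold change under every alternative run, and 0 were called higher in any. The number called lower was 6 with RLE scaling, library-size scaling, no filter, DESeq2 and limma-voom, 7 with the non-robust fit, and 4 to 7 as each library was left out. The non-robust fit added Tnnt3, at -0.42. With 1 library left out, Tnni1 lay between -1.02 and -0.66, Tnnt2 between -0.74 and -0.45 and Tnnt3 between -0.57 and -0.16. Calls of Tnni1 and Tnnt2 were lost there and that of Tnnt3 gained, with fewer samples in each fit. Tnnt1, Tnnc1, Tnni2 and Tnnc2 kept their calls in every alternative. Replicate numbers did not pair the libraries: the deviations of same-numbered libraries correlated at -0.04, 0.06 and -0.01. The replicate block called 6 troponin genes lower, with Tnnt3 at -0.39 (adjusted p = 0.0753), and 2197 of all genes lower, against 2330 without it. Among the other lists, 12 counts or shares moved, including 2 thin-filament genes higher with library-size scaling, 1 and 4 cardiac-type genes lower with library-size scaling and with no filter, and a Tnnt1 share of troponin T that differed by -1.10 points (shGAA minus shScrambled) with all exons. With 1 library left out, the difference in Tnni2 over Tnni1 ran from 0.20 to 0.34 and that in Tnnt3 over Tnnt1 from 0.12 to 0.20. The differences in Tnnc2 over Tnnc1 (-0.06 to 0.11) and Tnnt1 over Tnnt2 (-0.01 to 0.09) changed sign. Log2 ratios of the class sums ran from -0.97 to -0.68 (slow), -0.67 to -0.34 (fast) and -0.73 to -0.45 (cardiac). Depth limits Tnni3, at 0 to 6 counts per library, and the permutation tests cannot go below p = 0.1.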
